A study of Mus musculus with 40 samples.

Results

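E proteins and their Id inhibitors were followed through 6 genes, the E protein genes Tcf3, Tcf4 and Tcf12 and the inhibitor genes Id1, Id2 and Id3. The rule was the gene symbol alone, and all 6 were found among the 49585 gene rows of the count table. The libraries came from the bone marrow of 10 mice of strain C57BL6/129Ola, aged 46 to 51 days. The 5 control mice had the genotype Mbd3_Flox/Flox, so both Mbd3 alleles carried recombination sites, and the 5 Mbd3del mice had the genotype Mbd3_Del/Del. The sources used here do not give the Cre driver or the cells in which it acts. From each mouse, pools of haematopoietic stem cells (HSC), lymphoid-primed multipotent progenitors (LMPP), all-lymphoid progenitors (ALP) and B-biased lymphoid progenitors (BLP) were sorted by flow cytometry. Each pool gave 1 Smart-seq2 library, a full-length cDNA method that does not mark the strand, so there were 8 groups of 5 libraries. Pools held 150 HSC or 100 cells of the other populations per the sample labels, while the series text gives these numbers the other way round. The titles of the Mbd3del LMPP libraries name the floxed allele, and their genotype field the deleted one, which was followed.

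E proteins are basic helix-loop-helix transcription factors that pair with each other or with other helix-loop-helix factors and bind E box motifs in DNA. Id proteins keep the helix-loop-helix domain but lack the basic region that touches DNA, so a pair of an E protein and an Id protein cannot bind. E proteins encoded by Tcf3 are required for B lymphoid specification, Tcf4 is required for plasmacytoid dendritic cells, and Id2 is required for natural killer and innate lymphoid cells. The relative amount of the 2 families is therefore often described as a balance. Transcript levels do not measure protein or pairing.

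The 6 genes lie on different chromosomes (GRCm38, GENCODE M21): Tcf3 at chr10:80409514-80433647, Tcf12 at chr9:71842688-72111871, Id1 at chr2:152736251-152737410, Id2 at chr12:25093799-25097140 and Id3 at chr4:136143497-136145755. Tcf3 and Mbd3 (chr10:80392539-80399550), the gene deleted here, are both on the minus strand and lie 9964 bases apart. RefSeq promoter entries (GRCm38.p6) were matched for 4 of the 6 genes. The stretches outside annotated exons are shown for Id2, whose genotype groups separated in BLP, and for Tcf3, the neighbour of Mbd3. Both are on the minus strand, at chr12:25096254-25096342 (inside the span of the Id2 locus) and chr10:80433648-80433885 (next to the annotated start of Tcf3). Capitals mark the E box CANNTG, which reads as CANNTG on both strands.

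Id2: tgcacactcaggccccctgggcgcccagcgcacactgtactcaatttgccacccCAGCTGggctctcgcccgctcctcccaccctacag

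Tcf3: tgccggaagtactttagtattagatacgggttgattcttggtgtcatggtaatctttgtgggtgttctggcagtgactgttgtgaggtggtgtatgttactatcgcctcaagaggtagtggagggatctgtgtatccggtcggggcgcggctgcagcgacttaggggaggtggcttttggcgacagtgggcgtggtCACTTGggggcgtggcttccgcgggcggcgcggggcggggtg

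Each stretch held 1 E box, CAGCTG in Id2 and CACTTG in Tcf3. The same 89-base window held at least 1 E box in 33.0% of 32851 RefSeq promoter entries, and the 238-base window in 64.7%. These matches describe the letters and are not evidence of binding.

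Library totals ran from 2974305 to 9082610 gene counts, and 12845 to 15745 genes had a count. Mbd3 was at 8.18 CPM (counts scaled to a common library total) or more in all 20 control libraries and at 3.24 CPM or less in all 20 Mbd3del libraries. The summed level of 6 genes of the HSC gate was 1673 to 2959 CPM in HSC and 326 to 1214 CPM elsewhere. Outside HSC this sum was led by Ptprc, which is not confined to HSC. It averaged from 449.9 CPM in Mbd3del LMPP to 590.6 CPM in control ALP. The 5 genes of the lymphoid gate, Ly6d among them, summed to 5039 to 15018 CPM in BLP. This sum did not separate the other 3 populations, which overlapped at 823 to 2690 CPM. A single gene of the gate could differ: Il7r was called higher in ALP than in LMPP in both genotypes, by the edgeR test described below. Sex-linked transcripts went against the labelled sex in 2 controls, mouse10372 and mouse10381, and results that change without them are given so. The control ALP library of mouse10372 stood apart: it had the lowest total of its group, 3363182, and the most genes detected of all 40 libraries, 15745. Each library is a bulk pool, so fewer cells of a type and less RNA per cell cannot be told apart. The 5 replicates of a group are 5 mice.

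Differences were tested with edgeR's quasi-likelihood test across all genes that passed its expression filter, with Benjamini-Hochberg adjustment, and called at an adjusted p under 0.05. Values of libraries below are in CPM and listed by mouse number, controls mouse10357, mouse10358, mouse10372, mouse10380 and mouse10381, and Mbd3del mouse10360, mouse10361, mouse10365, mouse10376 and mouse10384. CPM compares libraries for 1 gene. To compare genes, CPM was divided by the length of all annotated exons in kilobases (kb).

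**Figure D1:**
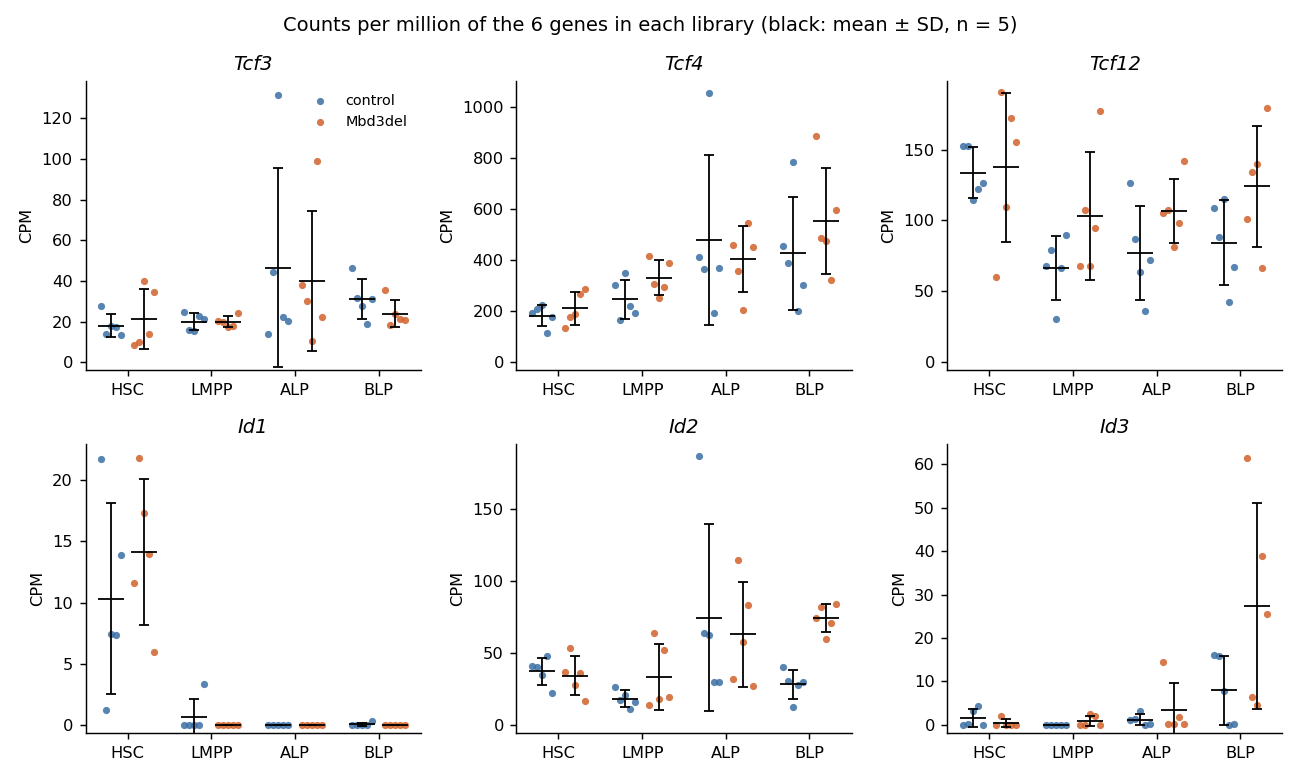
CPM of each of the 6 genes (y axis) in the 4 populations (x axis), with 1 point per library, controls in blue and Mbd3del in orange, and black bars for the mean and SD of 5 mice. Id1 is seen almost only in HSC, Tcf4 is highest on average in ALP and BLP, and in BLP the Mbd3del points for Id2 lie above every control point.

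Tcf4 (chr18:69343356-69689079, plus strand), which encodes E2-2, was the most abundant of the E protein transcripts per kb from LMPP to BLP and rose from HSC to BLP in both genotypes. In control HSC it was at 191.4, 208.8, 223.9, 114.7 and 175.4 CPM, and in control BLP at 457.6, 390.0, 784.0, 199.2 and 301.7 CPM. The level was higher in BLP than in HSC in all 5 control mice, although mouse10380 in BLP lay within the HSC range. The log2 fold change was 1.32 ± 0.33 (SE; adjusted p = 0.0118 by edgeR's quasi-likelihood test). In Mbd3del HSC it was at 132.3, 175.8, 189.4, 269.1 and 287.9 CPM, and in Mbd3del BLP at 886.1, 489.1, 475.7, 324.1 and 595.7 CPM. Here the groups did not overlap, as for 7.82% of 11114 genes in that direction, and all 5 mice were higher in BLP, with a log2 fold change of 1.59 ± 0.28 (adjusted p = 0.000877). From HSC to BLP, Tcf4 was the 1 member of 5 tested that passed in controls, where 15.7% of 11195 genes passed. DESeq2 called Tcf4, Tcf3 and Id1 there. In Mbd3del 4 of 6 passed, Tcf4, Id1, Id2 and Id3, where 19.3% of 11258 genes did. Id1 (348 counts in HSC, 0 in BLP) and Id3 (6 in HSC, 937 in BLP) each entered through 1 population, so their direction was fixed. With a minimum count of 50 in the filter, neither was tested. Without control mouse10357 the control call was lost (adjusted p = 0.0559), as it was without mouse10372 and mouse10381 together (adjusted p = 0.0930).

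Between these ends Tcf4 was at 301.8, 166.4, 349.1, 219.4 and 193.9 CPM in control LMPP and 412.8, 364.4, 1056.1, 193.3 and 368.0 CPM in control ALP. The Mbd3del values were 415.5, 305.3, 251.6, 293.6 and 390.3 CPM in LMPP and 458.0, 359.3, 205.4, 544.4 and 452.5 CPM in ALP. Neighbouring groups in the order of mean Tcf4 CPM overlapped throughout, and no step between neighbouring populations passed for Tcf4. The control ALP value of mouse10372, 1056 CPM, lay far from the other 4.

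Tcf3, which encodes E12 and E47, passed no comparison by edgeR. Per kb its mean was the lowest of the 3 E protein transcripts in HSC of both genotypes and in Mbd3del LMPP and BLP. It was above Tcf12 in control LMPP (4.94 against 4.28), control ALP (11.5 against 4.96), Mbd3del ALP (9.89 against 6.87) and control BLP (7.72 against 5.42). Control libraries held 27.7, 13.9, 17.7, 17.3 and 13.4 CPM in HSC, 24.8, 15.8, 15.4, 22.5 and 21.2 CPM in LMPP, 14.1, 44.6, 131.7, 22.1 and 20.5 CPM in ALP and 46.5, 31.5, 27.7, 19.0 and 31.2 CPM in BLP. BLP exceeded HSC in all 5 control mice, yet the log2 fold change of 0.88 ± 0.41 did not pass (unadjusted p = 0.0495, adjusted p = 0.182, and 0.0476, with DESeq2 on all genes with a count, to 0.462 over the alternatives other than leaving out single mice). Mbd3del libraries held 8.26, 10.1, 39.8, 13.9 and 34.7 CPM in HSC, 20.2, 19.7, 17.3, 17.7 and 24.2 CPM in LMPP, 37.9, 30.2, 10.5, 98.9 and 22.1 CPM in ALP and 35.5, 18.3, 23.5, 21.3 and 20.7 CPM in BLP. The genotypes overlapped in every population. In 5 of the 8 groups the library with the most genes detected had the highest Tcf3, and the 2 highest values, 131.7 CPM and 98.9 CPM, came from ALP libraries with 15745 and 15311 genes. The control HSC library of mouse10381, with 15389 genes, was an exception, at 13.4 CPM the lowest Tcf3 of its group. Tcf4 did the same in 4 of 8 groups and Tcf12 in 0. The part of gene detection in these levels was not tested.

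**Figure D2:**
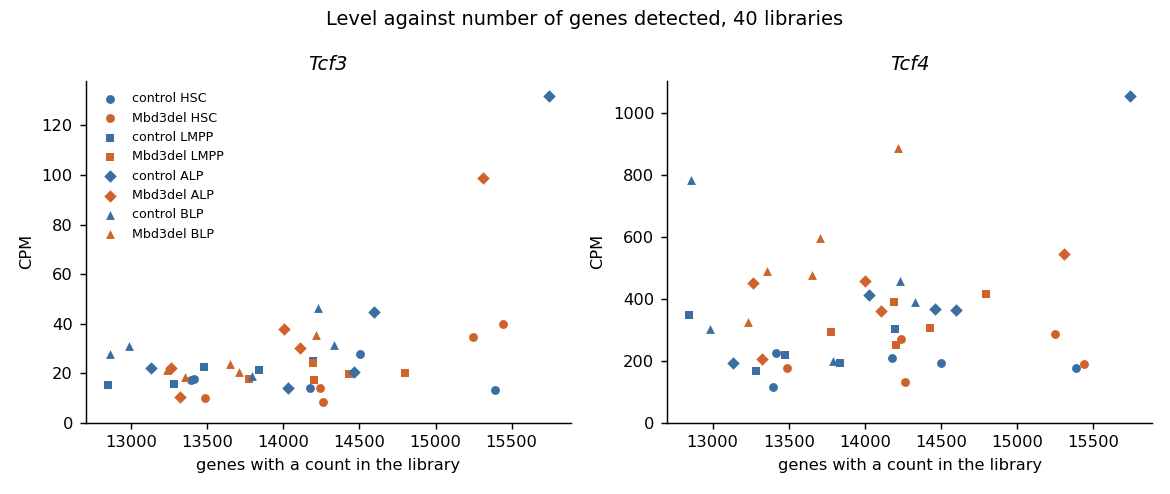
Tcf3 (left) and Tcf4 (right) in CPM on the y axis against the number of genes with a count in the library on the x axis, for all 40 libraries. Marker shape gives the population and colour the genotype. The 2 Tcf3 points at 131.7 and 98.9 CPM are ALP libraries with more than 15000 genes.

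Tcf12, which encodes HEB, had its highest mean in HSC in both genotypes. Its locus overlaps other annotated gene models, whose reads could not be told apart by strand. Control HSC held 152.5, 152.7, 114.6, 121.9 and 126.7 CPM, and control LMPP 67.8, 78.8, 30.1, 66.3 and 89.5 CPM. Every control LMPP library lay under every control HSC library, which was so for 6.77% of 10687 genes in that direction. The log2 fold change was -0.93 ± 0.27 with an adjusted p of 0.0614, which misses the threshold, and it ran from 0.00336 to 0.0824 over the alternatives other than leaving out single mice. Later control values were 126.3, 87.1, 63.9, 35.8 and 71.7 CPM in ALP and 108.6, 88.1, 114.9, 42.3 and 66.8 CPM in BLP. Mbd3del values were 60.2, 190.3, 109.7, 172.0 and 155.0 CPM in HSC, 67.7, 107.6, 68.0, 94.9 and 177.5 CPM in LMPP, 105.1, 107.1, 80.9, 98.1 and 142.2 CPM in ALP and 101.3, 134.2, 139.7, 66.2 and 179.2 CPM in BLP. There the HSC and LMPP groups overlapped. From LMPP to BLP the mean was higher in Mbd3del, with log2 fold changes of 0.55 ± 0.34, 0.53 ± 0.33 and 0.57 ± 0.31, none of which passed (adjusted p of 0.937, 0.9999 and 0.685). The difference of the HSC to LMPP step between genotypes was 0.57 ± 0.45 (adjusted p = 0.9998).

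Id1, an inhibitor induced by bone morphogenetic protein signalling, was a transcript of the HSC libraries. Control HSC held 21.8, 1.18, 7.45, 7.32 and 13.9 CPM and Mbd3del HSC 11.6, 21.9, 17.3, 13.9 and 5.94 CPM, so all 10 HSC libraries had a count and the genotypes overlapped. Only 2 of the other 30 libraries had any, both of control mouse10381, with 3.32 CPM (28 counts) in LMPP and 0.278 CPM (1 count) in BLP. In Mbd3del, 348 counts in HSC stood against 0 in LMPP and 0 in BLP. With 3 counts over the group as the floor for a count of 0, Id1 was at least 142-fold lower in LMPP and at least 135-fold lower in BLP. Both passed (adjusted p = 0.000975 and 0.000467), though Id1 entered these tests through HSC alone, so its direction was fixed. In controls 282 counts in HSC stood against 28 in LMPP, a ratio per gene count of 0.0763 (95% interval 0.0498 to 0.113, counting error only), and that step did not pass (adjusted p = 0.225). The difference of this step between genotypes did not pass (adjusted p = 0.759). In controls, 1 count in BLP gave a ratio to HSC of 0.00298 (7.52e-05 to 0.0167). Id1 missed the expression filter there and passed when no filter was used (adjusted p = 0.00220). Markers of stromal and endothelial cells were also highest in HSC: 9 genes summed to 119 to 350 CPM there and at most 155.5 CPM elsewhere. Emcn led the sum at 144.7 CPM on average in control HSC, with Lepr at 0 in control HSC and Pdgfra at 0 in Mbd3del HSC. The list does not show whether HSC or other cells made these transcripts, and their part in the Id1 result was not tested.

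Id2, an inhibitor needed for natural killer and innate lymphoid cells, was the most abundant Id transcript per kb in every group. It had the widest spread of levels in ALP and a difference between genotypes in BLP that missed the threshold. Control values were 40.7, 40.5, 34.8, 47.5 and 22.1 CPM in HSC and 26.4, 17.4, 20.4, 11.2 and 15.8 CPM in LMPP, lower in LMPP in all 5 mice, though the groups overlapped. They were 186.2, 63.9, 62.4, 29.8 and 29.5 CPM in ALP and 40.2, 30.2, 12.6, 27.5 and 29.8 CPM in BLP. Every control ALP library lay above every control LMPP library, which was so for 2.02% of genes compared in that direction. The fitted LMPP to ALP change was 1.94 ± 0.53 in log2 (adjusted p = 0.148, and 0.0122 to 0.376 over the alternatives other than leaving out single mice). Control mouse10357 was far above the others in ALP, and without it the log2 fold change was 1.35.

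Mbd3del values of Id2 were 36.9, 53.5, 27.7, 36.1 and 16.6 CPM in HSC, 14.1, 64.0, 17.9, 51.6 and 19.2 CPM in LMPP, 31.9, 114.7, 57.4, 82.9 and 27.0 CPM in ALP and 74.0, 82.0, 59.6, 71.0 and 84.0 CPM in BLP. The BLP group was tight and lay above every Mbd3del HSC library, which was so for 7.82% of 11114 genes in that direction. Id2 rose from HSC to BLP in Mbd3del, with a log2 fold change of 1.29 ± 0.35 (adjusted p = 0.0180), and all 5 mice were higher in BLP. That call was lost without mouse10360, mouse10365 or mouse10384 (adjusted p = 0.0565, 0.0507 and 0.0659). In controls the same change was -0.34 ± 0.39 (adjusted p = 0.659). The difference of the HSC to BLP step between genotypes was 1.63 ± 0.51 in log2, with an unadjusted p of 0.00403 and an adjusted p of 0.457. It therefore did not pass, and a step called in 1 genotype is not shown to differ from the other.

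In BLP the Id2 values of the genotypes did not overlap. The highest control was 40.2 CPM and the lowest Mbd3del 59.6 CPM, with means of 28.1 ± 9.93 and 74.1 ± 9.76 CPM (SD, n = 5 each). Of 10094 genes compared, 1.60% had every Mbd3del library above every control. The log2 fold change was 1.43 ± 0.31, unadjusted p = 0.000410 and adjusted p = 0.121 by edgeR, rank 36 of 10772 genes. No member passed in this comparison, where 0.0743% of genes did. DESeq2 gave adjusted p = 0.000272 on all genes with a count and 0.00236 on the genes of the edgeR filter, and a newer edgeR estimator gave 0.0434. limma voom gave 0.0754, and the other alternatives 0.0639 to 0.293, all with Id2 higher in Mbd3del. In HSC, LMPP and ALP the genotypes overlapped, with log2 fold changes of -0.17 ± 0.41, 0.76 ± 0.51 and -0.23 ± 0.52.

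Other cell types in the BLP pools were read from marker lists. The 14 natural killer and innate lymphoid markers summed to 583 to 808 CPM in control BLP and 547 to 810 CPM in Mbd3del BLP, mostly Nkg7, and Ncr1, Gzmb, Eomes and Tbx21 were at 0 in both. The 9 neutrophil and monocyte markers were 103.5 to 290.4 CPM in controls and 341 to 650 CPM in Mbd3del, with no overlap, and Ltf was at 0 in both. Mpo led this sum, at 152.8 and 283.2 CPM on average, and was also at 506.0 CPM in control LMPP. The 7 plasmacytoid dendritic cell markers were 707 to 1842 CPM and 1307 to 3207 CPM, and the 8 conventional dendritic cell markers 67.3 to 414 CPM and 212 to 487 CPM, with Batf3 at 0 in both. The sum of the 8 T cell markers was lower in Mbd3del, at 242 to 290 CPM against 321 to 686 CPM, with Cd3e and Trac at 0 in both. Lck led this sum, at 389.8 CPM on average in control BLP and 223.7 CPM in Mbd3del BLP. Its mean was also 308.7 CPM in control ALP. The part of these cells in the Id2 difference was not tested.

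**Figure D3:**
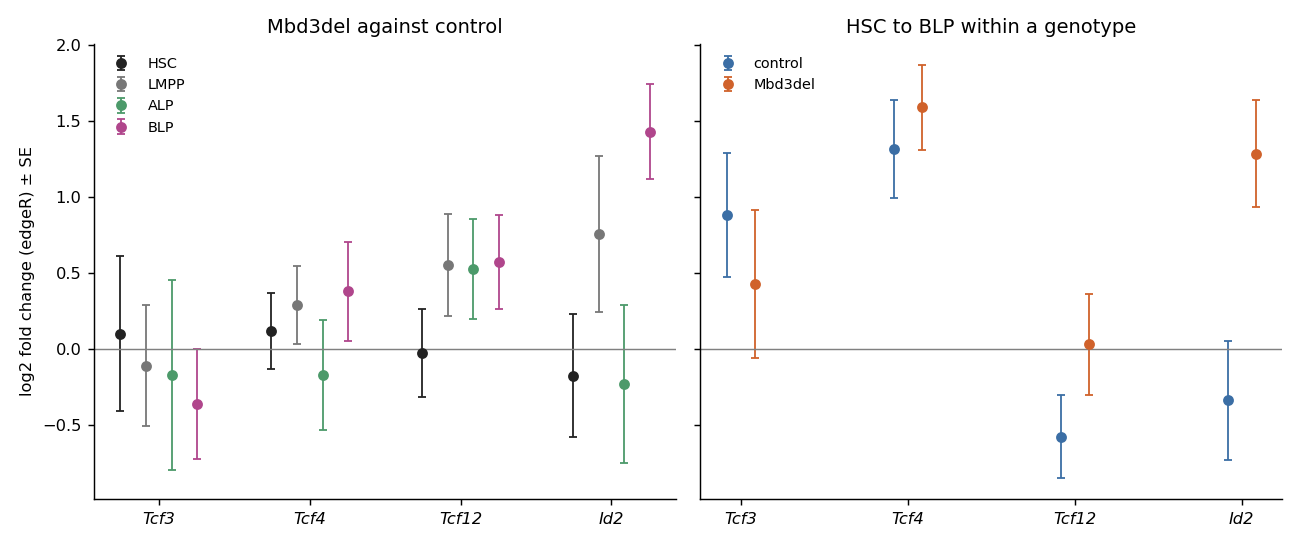
Log2 fold changes (y axis, edgeR estimate ± SE) of Tcf3, Tcf4, Tcf12 and Id2, the members tested in every comparison. Left: Mbd3del against control in each population. Right: BLP against HSC within each genotype. In BLP, Id2 is at 1.43, and from HSC to BLP, Tcf4 is above 0 in both genotypes, at 1.32 and 1.59.

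Id3, an inhibitor induced by antigen receptor signalling in lymphocytes, was a low transcript seen mainly in BLP. Counts were found in 24 of the 40 libraries. Control BLP held 16.1, 15.9, 7.71, 0 and 0.278 CPM, and Mbd3del BLP 61.6, 6.48, 4.63, 38.9 and 25.4 CPM. All 5 Mbd3del libraries were at 4.63 CPM or more, while control mouse10380 was at 0, and the genotypes overlapped. Elsewhere the highest value was 14.5 CPM, in the Mbd3del ALP library of mouse10360. In Mbd3del HSC, mouse10361 had 6 counts and the other 4 had 0. Id3 rose from HSC to BLP in Mbd3del, from 6 to 937 counts over the group (adjusted p = 0.00324), a ratio per gene count of 135 (95% interval 61.6 to 368, counting error only) and of 67.9 between the mean CPM. Since 1 mouse held all HSC counts, the ratio has little precision beyond its direction. That direction was fixed, because Id3 entered this test through BLP alone. The log2 fold change was 6.59, or 5.65 without mouse10360, and the call was kept without each mouse (adjusted p of 0.00103 to 0.0278). In controls 35 counts in HSC stood against 291 in BLP, a ratio of 6.99 (4.91 to 10.2), which did not pass (adjusted p = 0.375). Between genotypes in BLP the log2 fold change was 1.85 ± 1.08 (adjusted p = 0.728). In the other 3 populations Id3 missed the expression filter in the genotype comparison.

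Over the 4 genotype comparisons, 5 members in HSC, 4 in LMPP, 4 in ALP and 5 in BLP passed the expression filter, and 0 passed the test in each. The share of all genes called was 0.0176% in HSC, 0.0183% in LMPP and 0.0182% in ALP, besides the 0.0743% in BLP. At an unadjusted p under 0.05 there were 0, 0, 0 and 1 members, the last being Id2 in BLP. DESeq2 called 0, 0, 0 and 1, and limma voom 0 in each. For the 4 differences of a step between genotypes, edgeR called 0 members, against 0% of all genes in the 3 steps between neighbours and 0.0472% from HSC to BLP. DESeq2 and limma voom also called 0 in these. Unadjusted p was under 0.05 for Id1 and Id3 from HSC to LMPP and for Id2 from ALP to BLP and from HSC to BLP.

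For single steps within a genotype, 0 members passed from HSC to LMPP in controls (5.99% of all genes did). In Mbd3del 1 did, Id1, which entered through HSC alone (6.74% of all genes passed). At an unadjusted p under 0.05 there were 3 in controls, Id1, Id2 and Tcf12, and DESeq2 called 2 of them, Id2 and Tcf12. In Mbd3del there were 2, Id1 and Tcf4, and DESeq2 called 1, Id1. Tcf4 was higher in LMPP in all 5 Mbd3del mice, with a log2 fold change of 0.71 ± 0.24 that did not pass (adjusted p = 0.101). None passed from LMPP to ALP in controls (0.938% of all genes) or Mbd3del (2.18%), where 1 and 0 had an unadjusted p under 0.05 and DESeq2 called 1, Id2, and 0. None passed from ALP to BLP (0.266% and 0.636%), where 1 in controls, Id2, and 1 in Mbd3del, Id3, had an unadjusted p under 0.05 and DESeq2 called 0.

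The balance was summarised as the Id share, the summed CPM per kb of the 3 Id genes as a percentage of that of all 6. It is a description without a test. In controls the Id share averaged 55.2% ± 6.75 in HSC, 30.2% ± 5.60 in LMPP, 45.6% ± 18.0 in ALP and 36.4% ± 10.8 in BLP (SD, n = 5 each). It was lower in LMPP than in HSC in all 5 control mice, and the 2 groups did not overlap. Between these groups the E protein sum averaged 19.7 and 18.2 CPM per kb, with overlap, and the Id sum 24.96 and 8.05 CPM per kb, without. In Mbd3del the share averaged 54.1% ± 16.1 in HSC, 35.3% ± 16.5 in LMPP, 46.1% ± 15.6 in ALP and 56.8% ± 8.88 in BLP. It was again lower in LMPP than in HSC in all 5 mice, but the groups overlapped.

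In BLP the control libraries had Id shares of 42.0, 43.4, 18.1, 43.4 and 35.4%, and the Mbd3del libraries 57.6, 54.6, 45.7, 70.4 and 55.9%. Every Mbd3del library was above every control, by a gap between 43.4% and 45.7% that depends on the length used. Per kb of the longest transcript the highest control was at 28.375% and the lowest Mbd3del at 28.368%, a slight overlap, and without division by length they were at 9.54% and 9.14%. The Id sum was 16.02 ± 6.96 CPM per kb in control BLP and 45.7 ± 14.3 in Mbd3del BLP, and the E protein sum 28.7 ± 10.9 and 34.1 ± 9.71. Id2 made up 28.0% of the 6-gene level in control BLP and 39.5% in Mbd3del BLP, and Id3 8.31% and 17.3%. In HSC the Id part was Id2 and Id1, at 34.4% and 18.9% of the 6-gene level in controls and 29.0% and 24.7% in Mbd3del. The absolute share has little meaning by itself, since the exons of Tcf4 span 27.4 kb and its longest transcript 8.58 kb.

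**Figure D4:**
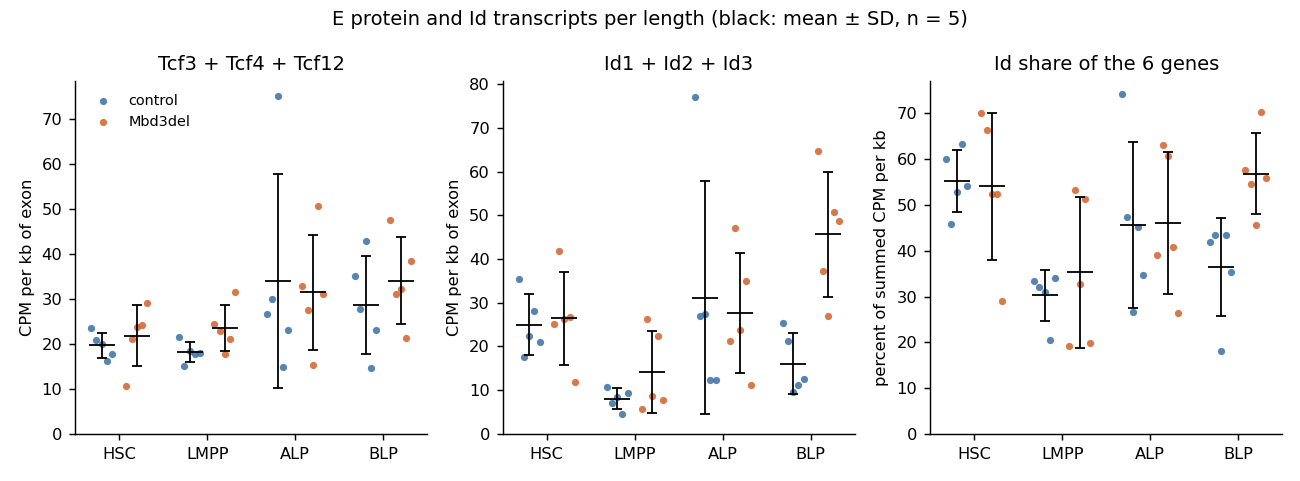
Summed CPM per kb of exon of the 3 E protein genes (left) and of the 3 Id genes (middle), and the Id share of both in percent (right), for each library, with mean and SD of 5 mice in black. The mean share is lower in LMPP than in HSC, and in BLP the Mbd3del libraries, from 45.7% to 70.4%, lie above the controls, from 18.1% to 43.4%.

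Genes that work with or downstream of the 6 were read from lists chosen for their roles. Among 15 genes listed as partners, cofactors and corepressors of E proteins, 9 were tested from HSC to BLP. The list includes Gata2, Lmo2, Lmo4 and Ldb1, which are not helix-loop-helix proteins. Between genotypes, 9 passed the expression filter in HSC and 7 in BLP. Some therefore entered through HSC, with their direction fixed beforehand. In controls 4 fell and 0 rose, with a list median of -0.62 in log2 against -0.01 for all genes. In Mbd3del 5 fell and 1, Lmo4, rose, with a median of -1.72 against -0.11. Of all genes, 8.33% fell and 7.34% rose in controls, and 9.83% fell and 9.48% rose in Mbd3del. Gata2, a stem cell factor, fell by 8.97 ± 0.59 in controls, and Tal1, an E protein partner of stem and erythroid cells, fell by 3.71 ± 0.58. Runx1t1, a corepressor, averaged 71.3 CPM in control HSC and 0.204 CPM in control BLP. Lmo2, which bridges Tal1 and Gata factors, fell by 3.62 ± 0.24. The fourth inhibitor gene, Id4, had 3 counts over all 40 libraries.

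Of 16 E protein targets in B lymphoid cells, 13 of 14 tested rose from HSC to BLP in controls and 12 of 13 in Mbd3del, and 0 fell in either. Of all genes, 7.34% rose and 8.33% fell in controls, and 9.48% and 9.83% in Mbd3del. The list medians were 8.23 and 8.36 in log2, against -0.01 and -0.11 for all genes. With Pou2af1, which had 0 counts in Mbd3del HSC, set at its bound, the Mbd3del median was 7.72. Between genotypes, 4 of the 16 passed the expression filter in HSC and 16 in BLP. Most therefore entered the HSC to BLP test through BLP, where they are high, and could hardly do other than rise. Their counts and medians are a description and are not evidence when set against those of all genes. Rag1, a recombinase subunit, averaged 0.451 CPM in control HSC and 218 CPM in control BLP. Blk, a kinase of the B lineage, averaged 0.277 and 177.7 CPM. Il7r rose too, but its product is part of the sort gate. In Mbd3del, Ebf1, a B lineage transcription factor, rose by 8.99 ± 0.59. Among 11 Tcf4-dependent plasmacytoid dendritic cell genes, 7 of 9 tested rose in controls and 9 of 10 in Mbd3del. Their medians, over these unequal sets of 9 and 10 genes, were 1.76 and 6.39, the latter 5.97 with Pacsin1 at its bound. Between genotypes, 6 of the 11 passed the expression filter in HSC and 10 in BLP. Some therefore entered through BLP, with their direction fixed beforehand. The difference of the step between genotypes, fitted for 10 genes, had a median of 0.56 against -0.04 for all genes, and 0 passed by edgeR, DESeq2 or limma voom, with 3 at an unadjusted p under 0.05. Siglech, a receptor of these dendritic cells, averaged 267 CPM in control BLP and 606 CPM in Mbd3del BLP. In the genotype comparison in BLP, 0 of 16 B lymphoid targets passed, with a median of -0.53, and 0 of 10 dendritic cell genes, with a median of 0.87, against -0.03 for all genes. At an unadjusted p under 0.05 there were 6 and 4, DESeq2 called 0 and 2, the latter Irf8 and Runx2, or 1 and 3 on the genes of the edgeR filter, and limma voom called 0 and 0.

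Of 10 E protein targets in T lymphoid cells, 5 were tested from HSC to BLP. In each genotype 3 rose, where 7.34% of all genes rose in controls and 9.48% in Mbd3del. Between genotypes, 3 passed the expression filter in HSC and 4 in BLP. Some therefore entered through 1 population, with their direction fixed beforehand. Notch1, Hes1 and Ccr9 were the 3 that rose in both. In Mbd3del, Gfi1 fell, and that call was lost in 4 of the 5 fits that left out 1 mouse, with limma voom (adjusted p = 0.0624) and with mouse as a block (0.110). The medians were 2.91 in controls and 2.55 in Mbd3del, against -0.01 and -0.11 for all genes. Of 21 genes of the bone morphogenetic protein and TGF-beta pathway, which induces Id genes, 15 were tested in controls, and 4 fell: Bmpr2, Eng, Tgfbr3 and Tfr2. In Mbd3del 16 were tested, and the same 4 and Bmp4 fell while Tgfbr1 rose. Among all genes 8.33% fell and 7.34% rose in controls, and 9.83% and 9.48% in Mbd3del. The medians were -0.94 and -1.003, against -0.01 and -0.11 for all genes. Between genotypes, 16 of the 21 passed the expression filter in HSC and 13 in BLP. Some therefore entered through HSC, with their direction fixed beforehand. Bmp4 in Mbd3del had 261 counts in HSC and 0 in BLP. The number that fell in controls was 2 in place of 4 without mouse10357, and also 2 without mouse10372 and mouse10381. The Tgfbr1 call was lost without mouse10360, mouse10361, mouse10365 or mouse10384, with mouse as a block (adjusted p = 0.0661), with no scaling beyond library totals (0.0906), with no expression filter (0.0617) and in a joint fit of all 40 libraries (0.203). Bmpr2, a receptor subunit for bone morphogenetic proteins, fell by 1.44 ± 0.27 in controls and by 1.51 ± 0.37 in Mbd3del. Of 8 other inducers of Id genes, 1 of 5 tested, Egr1, fell in both genotypes, where 8.33% and 9.83% of all genes fell. The medians were -0.38 and -0.45, against -0.01 and -0.11 for all genes. The Egr1 call was lost with no expression filter in both (adjusted p = 0.0616 in controls and 0.108 in Mbd3del). In Mbd3del it was also lost with limma voom (0.0659) and in the joint fit (0.0542), and DESeq2 gave no p for it.

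The genes most like each member were ranked by Pearson's r of log2(CPM + 1) over the 40 libraries, among 9793 genes with a mean of at least 5 CPM. These libraries share populations, mice and depth, so r is a description. Tcf3 was closest to Wasf2 (r = 0.77), Ncor1 (0.77) and Grk2 (0.76), and Tcf4 to Irf2bp2 (0.81), Foxp1 (0.80) and Ssh2 (0.79). For Tcf12 the closest were Dlg1 (0.69), Gstk1 (0.64) and Vegfc (0.63). Id1 followed Grb10 (0.94), Akr1c19 (0.94) and Gda (0.93), all of them averaging 1.96 CPM or less in every group outside HSC. Id2 had no close match, with Cd6, Gria3 and Oaf each at 0.54. Id3 was closest to Cybb (0.79), Vpreb1 (0.77) and Spib (0.76). Between members, r was highest for Tcf3 and Tcf4 (0.61, and 0.58 on deviations from group means) and lowest for Tcf4 and Id1 (-0.59, and -0.15 on deviations from group means).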

How the data were processed

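Counts of reads per gene were deposited by the authors as 1 table for 40 libraries. The submitters' processing notes name STAR 2.5.2b, HTSeq 0.6.1p1 and the build GRCm38. The sources used here do not give the annotation release or the strand setting, and where genes overlap their counts are uncertain. The 79325 repeat-region rows, 0.205% to 2.28% of a library, stayed out. Symbols came from GENCODE M21 for 49326 of 49585 gene rows. Comparisons used edgeR 4.0.16 (TMM scaling, minimum count 10 and minimum total 15 in its filter, no block for mouse), with alternatives in DESeq2 1.42.0 and limma 3.58.1 voom. DESeq2 was planned at default settings and ran on all genes with a count. A second run on the genes of the edgeR filter was added after the first run's counts had been seen, and both are reported. Tests were tried on simulated data. Populations of 1 genotype come from the same mice. Over 60 same-mouse pairs of libraries, deviations from group means correlated at -0.305 to 0.214, median 0.0481, with 15 over 0.1. Named genes were the 6 members, up to 6 called genes per list and comparison by size of fold, and the 3 most alike genes per member. Members and lists were chosen with earlier results of these data known. The result of 1 gene of a list is not reported here.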

Additional observations from a re-analysis of the deposited data

Results flagged for a closer look

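In 56 sets of 5 libraries (6 genes and the Id share in 8 groups), 8 had a highest or lowest library whose gap to the next exceeded Dixon's critical value. Chance flags about 1 in 20 sets of continuous values. That rate does not hold for sets with ties at 0, and in 3 of the 8, Id1 in control LMPP and BLP and Id3 in Mbd3del HSC, the other 4 libraries were at 0, so any count is flagged. The control ALP library of mouse10372 was highest for Tcf3, at 131.7 CPM, and for Tcf4, at 1056 CPM. The control ALP library of mouse10357 was highest for Id2, at 186.2 CPM. Control mouse10381 alone had Id1 counts outside HSC, at 3.32 CPM in LMPP and 0.278 CPM in BLP. Id3 was at 2.02 CPM in the Mbd3del HSC library of mouse10361 and at 14.5 CPM in the Mbd3del ALP library of mouse10360. The Id share of control LMPP was lowest in mouse10380, at 20.4%.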

How the results depend on the processing

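Among the alternatives run, no fold change of a member with an unadjusted p under 0.05 changed sign. The number of members called did move. Between genotypes in BLP it was 1 in place of 0 with DESeq2, with DESeq2 on the filtered genes and with the newer edgeR estimator, Id2 each time. From HSC to LMPP in controls it was 1 in place of 0 with RLE size factors and with DESeq2 on the filtered genes, and 2 with DESeq2, limma voom and the newer estimator. From LMPP to ALP in controls it was 1 in place of 0 with both DESeq2 runs and with a joint fit of all 40 libraries. From HSC to BLP in controls it was 2 in place of 1 with no expression filter, the newer estimator and the joint fit, 3 with DESeq2, 0 without mouse10372 and mouse10381, and 0 to 2 when single mice were left out. With a minimum count of 50 it was 0 in place of 1 from HSC to LMPP and 2 in place of 4 from HSC to BLP in Mbd3del, because Id1 and Id3 were no longer tested. The cause of the other moves was not tested.

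The mouse as replicate block changed no call of a member: 1 remained called from HSC to BLP in controls, and 4 from HSC to BLP and 1 from HSC to LMPP in Mbd3del. It moved the number of all genes called from 102 to 54 (LMPP to ALP) and 29 to 14 (ALP to BLP) in controls, from 242 to 154 and 69 to 41 in Mbd3del, and from 6 to 1 for the difference of the HSC to BLP step. Between genotypes, no paired analysis was possible because the genotypes share no mouse and no replicate number. Age was fitted as a covariate instead, chosen after seeing the data: 0 members were called in each population, Id2 in BLP was at 1.42 (adjusted p = 0.107), and the number of all genes called was 0 in HSC, 2 in LMPP, 2 in ALP and 20 in BLP. The number of all genes called between genotypes in BLP was 8, 245 with DESeq2, 158 with DESeq2 on the filtered genes, 3 with limma voom, 58 with the newer estimator, and 0 to 43 without single mice.

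The Id share depends on the length used. Without division by length it was 13.0% and 12.5% in HSC (control and Mbd3del), 5.37% and 7.22% in LMPP, 11.7% and 11.3% in ALP and 7.09% and 13.2% in BLP. With the longest transcript it was 37.1% and 36.3% in HSC, 17.4% in control LMPP, and 23.0% and 39.1% in BLP. Without mouse10372 and mouse10381, left out after seeing the data, control shares were 56.4% in HSC, 28.7% in LMPP, 55.6% in ALP and 42.9% in BLP. A count of 0 allows 0.330 to 1.01 CPM in a library (3 counts), so lower levels of Id1 and Id3 were not detectable.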
